A study of Homo sapiens with 8 samples.

Results

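The mitotic genes described here are 59 genes for the machinery that carries a cell from mitotic entry to the separation of its daughters. They are cyclins and kinases, the spindle checkpoint, motor and spindle proteins, the kinetochore, condensin and the cytokinesis apparatus, together with FOXM1, a transcription factor of the G2 and M phases. The list was drawn up by gene name, with earlier results of these data known. Shares of the list set beside shares of all genes are therefore a description and not a test of the set. All 59 were among the 19775 genes measured, each through a single probe set: of those assigned to exactly 1 symbol, the brightest on average over the 8 arrays.

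The cells were MDA-MB-453, an established human breast cancer line that expresses the androgen receptor and lacks the estrogen receptor. All groups first spent 3 days without phenol red and in 5% serum treated with charcoal and dextran, which strips out steroids. The treated groups were then given 10 nM DHT (5α-dihydrotestosterone, a potent natural androgen) for 4, 16 or 48 h, and the control group was given vehicle. Each of the 4 groups had n = 2 arrays labelled as biological replicates, 8 arrays in all. The vehicle arrays carry no time and were the control at all 3 times, so that DHT and time in culture cannot be told apart in a comparison with vehicle. The study used this 1 cell line.

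Most of these genes are transcribed in waves that peak in G2 and mitosis. CDK1 bound to cyclin A or cyclin B drives entry into mitosis. Kinesin motors and spindle proteins then build the spindle, and kinetochores attach the chromosomes to it. The spindle checkpoint holds back the anaphase-promoting complex (APC/C) until all chromosomes are attached, after which securin is destroyed and separase cuts cohesin. In non-dividing cells many of their promoters are repressed by the DREAM complex, and in dividing cells they are activated by complexes with B-MYB (MYBL2) and FOXM1. The level of such a transcript in a culture therefore depends in part on how many cells are in G2 and M.

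Markers of luminal breast cells were bright. KRT8, KRT18, KRT19, ERBB2, XBP1, SPDEF and FOXA1 each had a mean signal at or above the 95.8th percentile of all genes. ESR1 (8.23 to 8.62 in log2 signal) and PGR (7.31 to 7.6) lay near or below the middle of all genes. The basal markers KRT14, KRT5 and EGFR lay at the 11.4th, 46.5th and 61.7th percentiles, the leukocyte genes PTPRC and CD3E at the 33.5th and 50.9th, and the endothelial genes CDH5 and PECAM1 at the 4.53rd and 67.6th. Some markers changed against vehicle by the test described below. KRT19 rose by 0.58 at 16 h and 0.68 at 48 h and PIP by 0.36 and 1.24, SPDEF rose by 0.41 at 16 h, and KRT5 rose by 0.51 at 48 h. ERBB2 fell by 0.47 and 0.65, and FOXA1 fell by 0.72 at 48 h. Their part in the results was not tested. The mean log2 signal of 6 immune and endothelial markers was 7.46 on both vehicle arrays, between 7.46 and 7.59 at 4 h, between 7.47 and 7.54 at 16 h and between 7.47 and 7.53 at 48 h. For 6 mesenchymal markers it lay between 8.36 and 8.45 on all 8 arrays.

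The 2 arrays at 16 h stood apart from each other in these genes. At 16 h, 51 of the 59 mitotic genes were higher in replicate 2 than in replicate 1, by a median of 0.36 on the log2 scale. Over all genes the same median was 0.03. The 2 arrays of a group differed by more than 0.3 in 39 mitotic genes at 16 h, against 6 in vehicle, 2 at 4 h and 5 at 48 h. In the 16 h group, 12.3% of all genes differed by that much. The 16 h replicate 2 array had the largest excess of 3′ over 5′ signal in the array's control probe sets. That excess was 1.52 for ACTB, against 0.203 to 0.945 on the other 7 arrays, and 0.817 for GAPDH, against 0.185 to 0.349. Its part in the results at 16 h was not tested, and counts at 16 h are given below with and without each array of that group.

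After 16 and 48 h of DHT most of the mitotic genes had fallen. After 4 h none passed the test. A gene was called where its adjusted p was below 0.05 in limma's moderated test over all 8 arrays, with Benjamini-Hochberg adjustment over all 19775 genes. At 16 h, 45 of the 59 genes (76.3%) were lower than in vehicle and 0 were higher. Of all genes, 4.3% were lower by the same rule and 2.55% higher. At 48 h, 49 (83.1%) were lower and 0 higher, against 6.38% and 3.13% of all genes. The median log2 change of the 59 was -0.63 at 16 h (1.55-fold lower) and -0.68 at 48 h (1.6-fold lower), while the median over all genes was 0.02 and 0.01. Changes ran from -1.39 for ANLN to 0.11 for PTTG1 at 16 h, and from -1.16 for KIF23 to -0.23 for CDC20 at 48 h. In a bulk culture, fewer cells in G2 and M and less of each transcript per cell cannot be told apart.

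The group values separated well at the later times. All 59 genes had both 48 h arrays below both vehicle arrays, which held for 26.1% of all genes. At 16 h it held for 55 of the 59, against 21.1% of all genes, and the exceptions were BIRC5, CDC20, PTTG1 and CENPF. In each of these 4 the overlap came from replicate 2. A change of more than 1.5-fold downwards was reached by 36 of the 59 genes at 16 h and by 41 at 48 h. The share of all genes past that size was not counted.

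**Figure D1:**
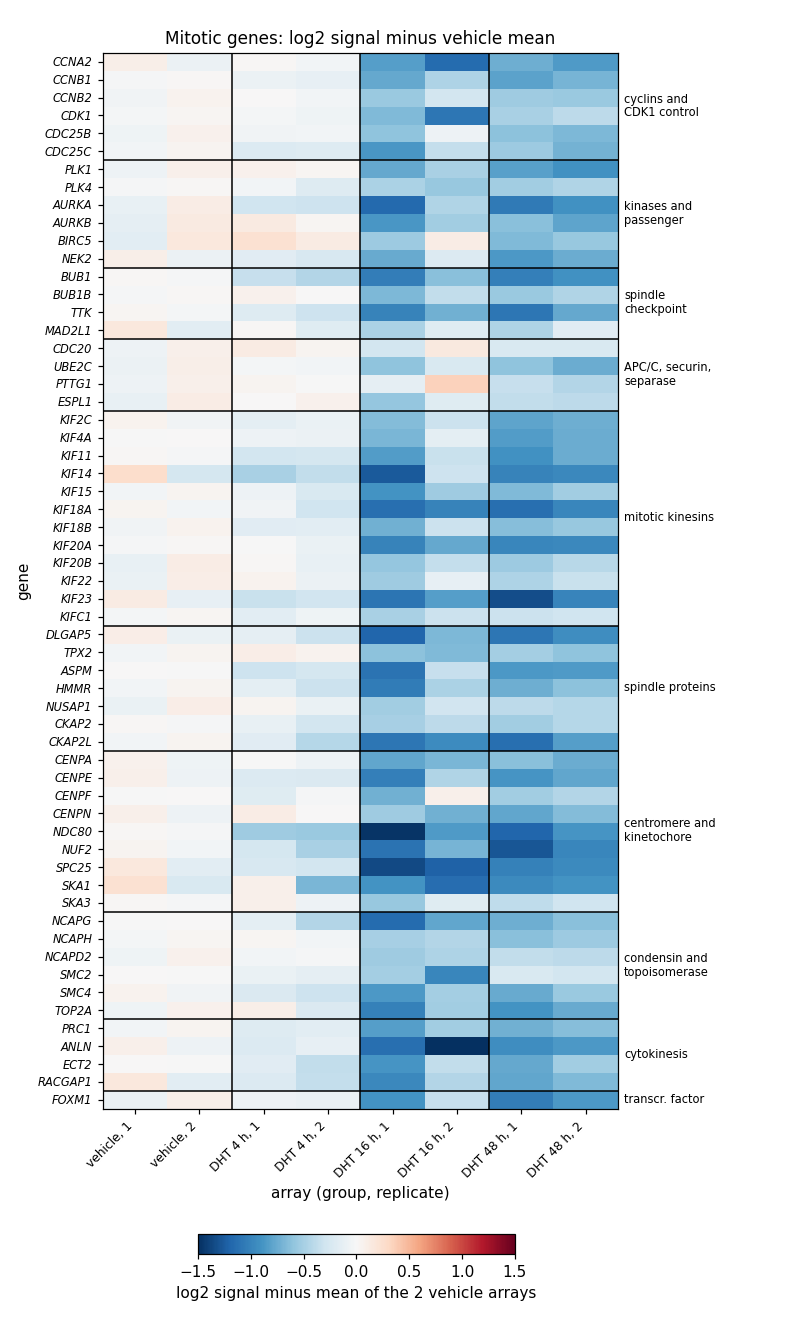
Heat map of the 59 mitotic genes (rows, by role) on the 8 arrays (columns). Colour gives the log2 signal minus the mean of the 2 vehicle arrays for that gene, blue for lower and red for higher. The 4 columns of 16 and 48 h are blue for nearly all rows, the 16 h replicate 2 column is higher than its partner in 51 of 59 rows, and CDC20 is the palest row at 48 h.

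At 4 h, 0 of the 59 genes were called by limma, where 0.177% of all genes were (0.0708% lower and 0.106% higher). An unadjusted p below 0.05 was found for 6 of the 59, and the share of all genes at that threshold was not counted. The median change was -0.11, and 50 of the 59 values lay below 0, against 49% of all genes. Both 4 h arrays were below both vehicle arrays for 34 genes, against 20.8% of all genes. The most negative value was that of NDC80, a kinetochore protein, at -0.54 ± 0.17 (SE, n = 2 a group, adjusted p = 0.431 in limma).

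Leaving out single arrays moved these counts. At 16 h the number lower was 54 without replicate 2 of that group and 31 without replicate 1. It was 21 without vehicle replicate 1 and 27 without vehicle replicate 2. At 48 h it was 23 without replicate 1 of that group and 31 without vehicle replicate 1. No mitotic gene was called higher than vehicle in any of these fits. Fewer of all genes were called lower too at 16 h without either vehicle array. The same held at 48 h without vehicle replicate 1 or 48 h replicate 1. The drop in these counts therefore cannot be called particular to the mitotic genes. In the 8 fits that each left out 1 array, 19 of the 45 genes kept their call at 16 h throughout and 21 of the 49 at 48 h. Over all 18 alternatives, which include those 8, 13 genes kept their call at 16 h and 15 at 48 h. A further 4 and 5 kept it in the 17 alternatives that gave them a value. Their only probe set is of the _s_at or _x_at kind, which can match more than 1 transcript, and the alternative without such probe sets could not be run for them.

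**Figure D2:**
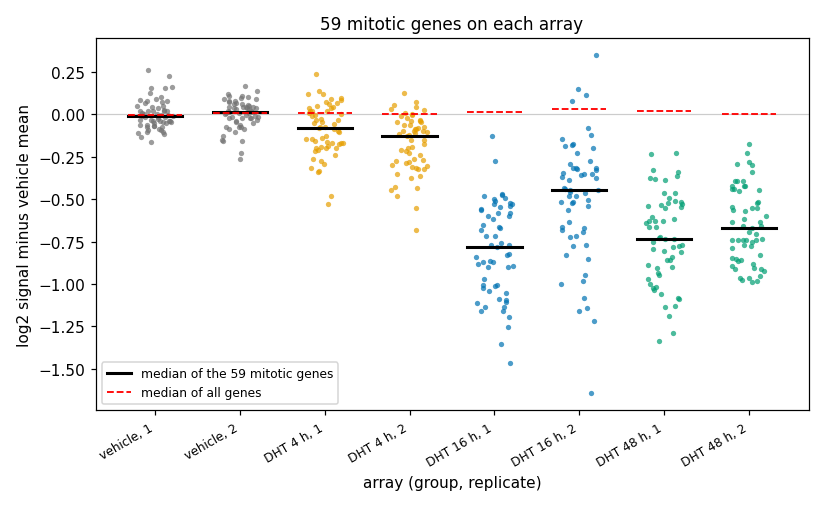
Log2 signal minus the vehicle mean for each of the 59 mitotic genes (points) on each of the 8 arrays, with the median of the 59 (black line) and of all genes (red dashes). The median of the 59 is -0.08 and -0.13 on the 4 h arrays, -0.78 and -0.45 on the 16 h arrays and -0.73 and -0.67 on the 48 h arrays, while the median of all genes stays near 0.

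The promoters of these genes have a known architecture. Many hold a CHR (cell cycle genes homology region, letters TTTGAA), which is the element bound by DREAM and by the B-MYB and FOXM1 complexes. Upstream of it lie CCAAT boxes (letters CCAAT), which are bound by NF-Y. In RefSeq windows of 300 bases on GRCh38.p14, from 250 before to 50 after the start, 52 of the 59 genes had an entry. TTK, UBE2C, BIRC5, FOXM1, RACGAP1, TPX2 and AURKA had none there. Both strands were searched, and the motifs can share at most an end base. The stretches from 150 bases before to 30 bases after the start are shown for 6 genes, chosen after their values were seen. PLK1, KIF23, DLGAP5 and CCNA2 stand for their roles, ANLN had the lowest change at 16 h, and CDC20 did not pass the test at any time. Capitals mark a CHR (TTTGAA or, on the other strand, TTCAAA) or a CCAAT box (CCAAT or ATTGG), and each is written 5′ to 3′ along its gene:
PLK1 (chr16:23678739-23678918, plus strand): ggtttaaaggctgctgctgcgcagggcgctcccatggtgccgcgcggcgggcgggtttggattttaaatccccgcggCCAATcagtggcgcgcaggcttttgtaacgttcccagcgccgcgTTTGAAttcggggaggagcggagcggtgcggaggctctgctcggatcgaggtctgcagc
KIF23 (chr15:69414199-69414378, plus strand): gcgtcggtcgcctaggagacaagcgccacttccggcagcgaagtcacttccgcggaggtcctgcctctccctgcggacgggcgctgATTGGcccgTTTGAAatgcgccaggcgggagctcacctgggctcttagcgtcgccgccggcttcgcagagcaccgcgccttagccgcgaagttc
DLGAP5 (chr14:55191556-55191735, minus strand): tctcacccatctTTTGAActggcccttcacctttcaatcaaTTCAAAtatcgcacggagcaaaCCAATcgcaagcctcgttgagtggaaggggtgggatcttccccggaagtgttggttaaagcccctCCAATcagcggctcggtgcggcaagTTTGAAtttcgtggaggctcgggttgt
ANLN (chr7:36389712-36389891, plus strand): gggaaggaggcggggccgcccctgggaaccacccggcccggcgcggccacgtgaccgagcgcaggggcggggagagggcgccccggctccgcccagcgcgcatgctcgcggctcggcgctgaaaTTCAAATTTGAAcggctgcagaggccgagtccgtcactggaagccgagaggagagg
CCNA2 (chr4:121823854-121824033, minus strand): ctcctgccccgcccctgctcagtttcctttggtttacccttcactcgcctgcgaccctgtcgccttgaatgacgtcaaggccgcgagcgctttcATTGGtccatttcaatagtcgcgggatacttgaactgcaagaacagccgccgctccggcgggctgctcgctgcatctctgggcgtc
CDC20 (chr1:43358831-43359010, plus strand): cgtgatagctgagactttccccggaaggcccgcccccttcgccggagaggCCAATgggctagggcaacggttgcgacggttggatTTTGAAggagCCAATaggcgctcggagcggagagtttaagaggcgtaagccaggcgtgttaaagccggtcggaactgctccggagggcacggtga

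PLK1 and KIF23 hold a CCAAT box a short way upstream of a CHR. ANLN shows a CHR on both strands next to each other and no CCAAT box in the printed stretch. For CCNA2 the stretch shows a CCAAT box and no TTTGAA, and for CDC20 it shows both motifs. A gene can have several windows, and each was counted by its first. Of the 52 genes, 38 (73.1%) held a CHR in it, against 11.4% of the 13456 protein-coding genes with a window. Over all windows it was 42 of 67 (62.7%), against 11.9%. A CCAAT box was found in 36 (69.2%), against 36.2%, and both in 27 (51.9%), against 4.69%. In the 30 bases from -40 to -11, 25.0% of the mitotic promoters held a CHR, against 1.02% of all. In those from -70 to -41, 50% held a CCAAT box, against 10.2%. Of the 38 genes with a CHR, 31 were lower at 48 h, with a median change of -0.68. Of the 14 without those letters in the first window, 12 were lower, with a median of -0.73. Only the exact letters TTTGAA were searched, so these 14 cannot be taken as genes that lack a CHR. A match to these letters is a description of the sequence and not evidence of binding in these cells.

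**Figure D3:**
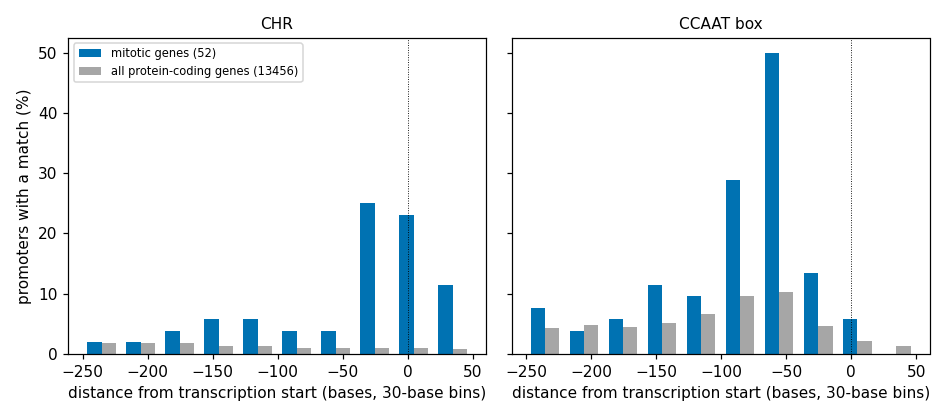
Share of promoters with a CHR (left) or a CCAAT box (right) in 30-base bins by distance from the transcription start, for 52 mitotic genes (blue) and 13456 protein-coding genes (grey). For the CHR the mitotic genes stand highest at -40 to -11 (25.0%) and -10 to 19 (23.1%), and for the CCAAT box at -70 to -41 (50%) and -100 to -71 (28.8%).

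Among the cyclins and CDK1 control genes, 5 of 6 fell at 16 h and 6 of 6 at 48 h. CCNA2 encodes cyclin A2, the CDK partner of S and G2 phase. Its log2 signal was 11.85 and 11.68 in vehicle, 11.79 and 11.73 at 4 h, 10.94 and 10.61 at 16 h, and 11.03 and 10.92 at 48 h. All arrays of the later times lay well below those of vehicle and 4 h, which overlapped. The change at 48 h was -0.80 ± 0.12 (SE), 1.74-fold lower, with adjusted p = 0.00139 in limma. A second CCNA2 probe set gave -0.49 at 16 h and -0.67 at 48 h (adjusted p = 0.111 and 0.029 in limma over all probe sets). CCNB1 and CCNB2 are the mitotic B cyclins. CCNB1 fell by 0.62 at 16 h and by 0.75 at 48 h, and CCNB2 fell by 0.42 and 0.54. A second CCNB1 probe set gave -0.49 and -0.98 and was called only at 48 h (adjusted p = 0.231 and 0.0207 in limma over all probe sets). The call of CCNB2 at 16 h (adjusted p = 0.0384) was lost in 11 of the 18 alternatives, with adjusted p up to 0.223.

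CDK1, the kinase they activate, had log2 signals of 12.18 and 12.24 in vehicle, 11.55 and 11.13 at 16 h and 11.72 and 11.82 at 48 h. It fell by 0.87 at 16 h and by 0.44 at 48 h (adjusted p = 0.00162 and 0.0484 in limma). The second call sat at the threshold and was lost in 10 of the 18 alternatives, with adjusted p up to 0.282. The phosphatases CDC25B and CDC25C remove inhibitory phosphates from CDK1. CDC25C fell by 0.61 and 0.62, and CDC25B by 0.64 at 48 h, while its value at 16 h was -0.34 (adjusted p = 0.206). In CDC25B the 16 h arrays disagreed, at 11.12 and 11.64, where the vehicle arrays stood at 11.66 and 11.79.

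Among the mitotic kinases and the chromosomal passenger proteins, 4 of 6 fell at 16 h and 5 of 6 at 48 h. PLK1, which acts from mitotic entry to cytokinesis, gave 11.04 and 11.19 in vehicle, 11.18 and 11.14 at 4 h, 10.34 and 10.63 at 16 h, and 10.30 and 10.21 at 48 h. It was at vehicle level at 4 h and below it on all 4 later arrays. It fell by 0.63 ± 0.11 (SE) at 16 h and by 0.86 ± 0.11 at 48 h (adjusted p = 0.00597 and 0.000516 in limma). Both calls were kept in all 18 alternatives. PLK4, which starts centriole duplication, fell by 0.52 and 0.48.

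Aurora A (AURKA) works at spindle poles, and Aurora B (AURKB) is the kinase of the passenger complex. AURKA stood at 11.23 and 11.47 in vehicle, at 10.19 and 10.90 at 16 h and at 10.29 and 10.44 at 48 h, so that both later groups lay below vehicle although the 16 h arrays were 0.71 apart. It fell by 0.81 at 16 h and by 0.98 at 48 h. The 16 h call (adjusted p = 0.022) was lost without either vehicle array or without 16 h replicate 1, and adjusted p reached 0.573 over all alternatives. AURKB fell by 0.69 and 0.71. NEK2, a centrosome kinase, changed by -0.48 at 16 h (adjusted p = 0.0934) and fell by 0.80 at 48 h. BIRC5 (survivin), a passenger subunit, read -0.22 at 16 h and -0.61 at 48 h (adjusted p = 0.57 and 0.0568 in limma). Its 16 h arrays were split, with 10.66 below both vehicle arrays (11.04 and 11.37) and 11.32 between them. The 3 further BIRC5 probe sets gave mixed readings, adjusted over all probe sets. The first gave -0.61 at 16 h and -0.58 at 48 h (adjusted p = 0.0423 and 0.0396). Another gave -0.49 and -0.40 (adjusted p = 0.042 and 0.0686), and the last gave -0.12 and -0.31 (adjusted p = 0.795 and 0.419).

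The spindle checkpoint genes BUB1, BUB1B and TTK fell at both later times, and MAD2L1 did not pass the test. BUB1 is a kinetochore kinase that recruits other checkpoint proteins. Its log2 signal was 10.13 and 10.10 in vehicle, 9.78 and 9.68 at 4 h, 9.08 and 9.49 at 16 h, and 9.09 and 9.21 at 48 h. The 4 h arrays already lay below vehicle, at a change of -0.39 that was not called (adjusted p = 0.465), and the later arrays lay lower still. BUB1 fell by 0.84 at 16 h and by 0.97 at 48 h. TTK, the kinase that starts checkpoint signalling, fell by 0.86 and 0.93, and BUB1B by 0.52 and 0.50. The calls of BUB1 and TTK were kept in all 18 alternatives at both times. MAD2L1, which forms the inhibitor of the APC/C, read -0.33 and -0.32 (adjusted p = 0.243 and 0.228).

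The APC/C, securin and separase genes were the role with the fewest calls: 0 of 4 at 16 h and 1 of 4 at 48 h. CDC20 is the activator that the checkpoint holds back. It read 11.82 and 11.97 in vehicle, 12.02 and 11.94 at 4 h, 11.62 and 12.04 at 16 h, and 11.67 and 11.67 at 48 h. The 16 h arrays fell on either side of the vehicle pair, and the 48 h arrays just below it. Its change at 48 h was -0.23 ± 0.13 (SE, adjusted p = 0.343), the smallest of the 59.

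PTTG1 (securin, which keeps separase inactive) read 12.93 and 13.08 in vehicle, 12.88 and 13.36 at 16 h, and 12.66 and 12.57 at 48 h. The change was 0.11 at 16 h, the only one above 0 among the 59 at that time, and -0.39 at 48 h (adjusted p = 0.736 and 0.114 in limma). ESPL1 (separase) read -0.38 at both times (adjusted p = 0.111 and 0.0947). A second ESPL1 probe set gave -0.61 and -0.51 and was not called (adjusted p = 0.0544 and 0.0782 in limma over all probe sets). UBE2C, the ubiquitin-conjugating enzyme of the APC/C, read -0.41 at 16 h (adjusted p = 0.0782) and fell by 0.67 at 48 h. No test compared this role with the others.

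The mitotic kinesins move chromosomes and spindle microtubules. Of 12, 9 fell at 16 h and 10 at 48 h. KIF18A dampens chromosome movement at the metaphase plate. It read 9.74 and 9.66 in vehicle, 9.65 and 9.40 at 4 h, 8.56 and 8.70 at 16 h, and 8.57 and 8.72 at 48 h. Its 4 later arrays lay close together and well below all arrays of vehicle and 4 h. It fell by 1.07 ± 0.11 (SE) and by 1.05 ± 0.11, 2.1-fold and 2.08-fold lower, with adjusted p = 0.00017 and 0.000107 in limma. KIF20A, needed for cytokinesis at the central spindle, fell by 0.89 and 0.97. At both times KIF20A kept its call in all 18 alternatives and KIF18A in the 17 that could be run for it.

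KIF23 is the motor of centralspindlin, which organises the midzone between the separating chromosomes. It read 10.09 and 9.84 in vehicle, 9.63 and 9.68 at 4 h, 8.87 and 9.13 at 16 h, and 8.63 and 8.98 at 48 h. Its arrays stepped down from vehicle to 4 h and again to the later times, without overlap between vehicle and any DHT group. It fell by 0.96 at 16 h and by 1.16 at 48 h. A second KIF23 probe set, with a mean log2 signal of 7.02 over the arrays, read -0.02 and -0.27 and was not called (adjusted p = 0.967 and 0.418 over all probe sets).

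Of the other kinesins, KIF11, which pushes spindle poles apart, fell by 0.59 and 0.82, and KIF15, which can act in its place, by 0.72 and 0.59. KIF2C, a microtubule depolymerase at centromeres, fell by 0.48 and 0.76. KIF18B fell by 0.52 and 0.61, and KIF20B by 0.47 and 0.48. The KIF20B call was lost in 10 of the 17 alternatives that could be run for it at 16 h and in 5 at 48 h. Other KIF20B probe sets, dimmer than the first, read 0.03 and 0.02 at 16 h and were not called. KIF4A, a chromosome-bound motor, read -0.42 at 16 h (adjusted p = 0.122) and fell by 0.79 at 48 h. KIF14, a midbody motor, read -0.79 at 16 h with the largest gap between its 2 arrays of all 59 genes, 9.12 against 10.06, and was not called (adjusted p = 0.0858). It fell by 0.98 at 48 h. KIFC1, which bundles spindle microtubules, fell by 0.40 at 16 h and read -0.31 at 48 h (adjusted p = 0.0665). KIF22 read -0.33 and -0.40 (adjusted p = 0.198 and 0.094).

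Among the spindle proteins, 6 of 7 fell at 16 h and 7 of 7 at 48 h. DLGAP5 (HURP) stabilises kinetochore fibres. It read 11.19 and 10.98 in vehicle, 10.95 and 10.76 at 4 h, 9.89 and 10.41 at 16 h, and 10.00 and 10.16 at 48 h. Both later groups lay clear of vehicle and 4 h. It fell by 0.93 ± 0.16 (SE) at 16 h, and at 48 h it had fallen 2-fold. CKAP2L, a spindle microtubule protein, fell by 1.02 and 0.98, and TPX2, the activator of Aurora A, by 0.64 and 0.56. At each time CKAP2L kept its call in all 18 alternatives and TPX2 in the 17 that could be run for it.

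ASPM, a spindle pole protein, fell by 0.73 and 0.85. Its 16 h arrays stood at 10.92 and 11.67, against 12.03 and 12.02 in vehicle, and 2 further ASPM probe sets gave -1.58 and -1.31 at that time. HMMR fell by 0.77 and 0.68, and CKAP2 by 0.44 and 0.47. NUSAP1 read -0.41 at both times, which missed the threshold at 16 h (adjusted p = 0.0514) and passed it at 48 h (adjusted p = 0.0415). The 48 h call was lost in 9 of the 18 alternatives. A second NUSAP1 probe set gave -0.50 at 16 h and was called there (adjusted p = 0.0182 in limma over all probe sets).

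The centromere and kinetochore genes held several of the lowest values, with 7 of 9 lower at each of the later times. NDC80, NUF2 and SPC25 are subunits of the NDC80 complex, which grips the microtubule end. NDC80 read 8.91 and 8.87 in vehicle, 8.36 and 8.34 at 4 h, 7.43 and 8.04 at 16 h, and 7.70 and 8.01 at 48 h. SPC25 read 9.72 and 9.42 in vehicle, 9.33 and 9.29 at 4 h, 8.21 and 8.35 at 16 h, and 8.55 and 8.61 at 48 h. In both genes every DHT array was below both vehicle arrays, and every later array was below both 4 h arrays.

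NDC80 fell by 1.16 ± 0.17 (SE) at 16 h and by 1.04 ± 0.17 at 48 h. SPC25 fell by 1.29 ± 0.11 and by 0.99 ± 0.11, and its adjusted p at 16 h, 4.77e-05 in limma, was the lowest of the 59 genes there. NUF2 fell by 0.90 and 1.13. All 3 kept their calls in all 18 alternatives at both times. SKA1, of the complex that couples kinetochores to moving microtubule ends, fell by 1.02 and 0.92, with 2 vehicle arrays that stood 0.45 apart (8.19 and 7.74). Its partner SKA3 read -0.37 and -0.34 (adjusted p = 0.109 and 0.128).

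CENPA, the histone that marks centromeres, fell by 0.73 and 0.69, and its reader CENPN by 0.63 and 0.72. CENPE, a kinetochore motor, fell by 0.74 and 0.83. CENPF, a large kinetochore and nuclear matrix protein, read 11.35 and 11.36 in vehicle, 10.64 and 11.44 at 16 h, and 10.84 and 10.92 at 48 h. Only the second 16 h array stood above vehicle. CENPF was not called at 16 h (-0.32, adjusted p = 0.409) or at 48 h (-0.48, adjusted p = 0.167).

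The condensin and topoisomerase genes, which compact and untangle chromosomes, were lower in 6 of 6 cases at 16 h and in 5 of 6 at 48 h. NCAPG fell by 0.97 and 0.68, NCAPH by 0.47 and 0.59, and NCAPD2 by 0.50 and 0.38. SMC4 fell by 0.69 and 0.65. SMC2, its partner in the condensin ring, read 9.76 and 9.74 in vehicle, 9.24 and 8.76 at 16 h, and 9.52 and 9.47 at 48 h. It fell by 0.75 at 16 h and read -0.26 at 48 h (adjusted p = 0.291). TOP2A, the DNA topoisomerase of dividing cells, fell by 0.77 and 0.83.

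All 4 cytokinesis genes fell at both later times. ANLN (anillin) is the scaffold of the contractile ring. It read 10.94 and 10.79 in vehicle, 10.67 and 10.75 at 4 h, 9.73 and 9.22 at 16 h, and 9.93 and 10.01 at 48 h. It fell by 1.39 ± 0.14 (SE) at 16 h, 2.62-fold, and by 0.90 ± 0.14 at 48 h, with adjusted p = 0.00017 and 0.00207 in limma. It was among the 8 genes with a lower signal in replicate 2 at 16 h than in replicate 1. A second ANLN probe set gave -1.32 and -1.20.

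PRC1, which bundles midzone microtubules, fell by 0.68 at both times and kept both calls in the 17 alternatives that could be run for it. ECT2, which activates RHOA at the division plane, fell by 0.63 and 0.65. RACGAP1, the partner of KIF23 in centralspindlin, fell by 0.70 and 0.72. The 16 h calls of ECT2 and RACGAP1 were lost without vehicle replicate 1 and without 16 h replicate 1, with adjusted p up to 0.16 and 0.211 over all alternatives.

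FOXM1 itself read 11.50 and 11.68 in vehicle, 11.51 and 11.49 at 4 h, 10.68 and 11.24 at 16 h, and 10.55 and 10.72 at 48 h. Its later arrays all lay below vehicle and 4 h. It fell by 0.62 at 16 h and by 0.95 at 48 h (adjusted p = 0.0332 and 0.0023 in limma). The 16 h call was lost in 7 of the 8 fits that left out 1 array, with adjusted p up to 0.15, and the 48 h call was kept in the 17 alternatives that could be run for it.

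**Figure D4:**
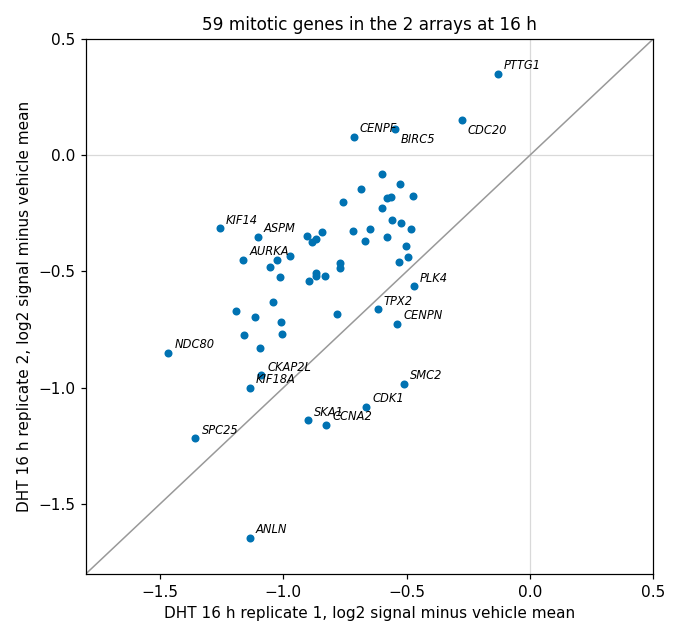
The 59 mitotic genes in the 2 arrays at 16 h, each as log2 signal minus the vehicle mean, with replicate 1 on the x axis and replicate 2 on the y axis, and the line of equality. Above the line lie 51 genes, and below it lie 8, among them ANLN, SMC2, CDK1 and CCNA2. PTTG1, CDC20, BIRC5 and CENPF are the 4 with a value above 0 in replicate 2.

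The 2 arrays at 16 h did not differ by the same amount in every gene. All 12 kinesins, all 4 checkpoint genes and all 4 APC/C, securin and separase genes were higher in replicate 2. The largest gaps were 0.94 for KIF14, 0.79 for CENPF, 0.76 for ASPM and 0.71 for AURKA. In the opposite direction, replicate 2 was lower by 0.51 for ANLN, by 0.47 for SMC2, by 0.42 for CDK1 and by 0.33 for CCNA2. With 2 arrays a group these gaps were not tested.

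Comparisons between times asked when the fall took place. Against 4 h, 25 of the 59 genes were lower at 16 h and 0 higher, where 1.77% of all genes were lower and 1.28% higher, and the median change was -0.46. At 48 h, 34 were lower than at 4 h and 0 higher, where 3.72% of all genes were lower and 2.41% higher, and the median change was -0.56. Without 16 h replicate 2 the first count was 48, without 4 h replicate 1 it was 7, without 4 h replicate 2 it was 12 and without 16 h replicate 1 it was 15. The second was 11 without 4 h replicate 1, 12 without 48 h replicate 1, 16 without 48 h replicate 2 and 19 without 4 h replicate 2. Without either 4 h array fewer of all genes were lower too, in both comparisons, as they were at 48 h without either 48 h array. Without 16 h replicate 1, more of all genes but fewer mitotic genes were lower at 16 h than at 4 h. Without 16 h replicate 2 it was the other way round. SPC25 and ANLN were more than 2-fold lower at 16 h than at 4 h, with changes of -1.03 and -1.23.

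Between 16 and 48 h, 0 of the 59 genes were called by limma, where 0.829% of all genes were. An unadjusted p below 0.05 was found for 8 of the 59, and the share of all genes at that threshold was again not counted. The median change was -0.03, with values from -0.50 to 0.49. Without 16 h replicate 1, 12 were called, 9 lower and 3 higher at 48 h. In that fit more of all genes were called as well, both lower and higher. The comparison of 16 h with vehicle and that of 48 h with 4 h have no array in common, although the spread was estimated jointly. Of the 45 genes lower in the first, 29 (64.4%) were lower in the second, and these were 85.3% of its 34. Of all genes, 4.3% were lower in the first and 3.72% in the second. Their overlap over all genes was not counted, so the overlap cannot be called particular to the mitotic genes. Over the 59 genes the 2 sets of changes correlated at r = 0.44, as a description of genes that are not independent.

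Beyond the 59, further genes of the same processes were read from 12 lists. No gene of these 12 lists was called at 4 h. Of 26 other kinetochore and centromere genes, 16 were lower at 16 h and 15 at 48 h, among them KNL1 (-1.16 and -0.91) and SKA2 (-0.53 and -0.82). Of 13 other cytokinesis genes, 7 and 6 were lower. MYH9, the non-muscle myosin heavy chain, fell by 1.35 and 1.33, and SHCBP1, a partner of centralspindlin, by 1.23 and 1.17. Of 12 other genes of mitotic entry and exit, 5 and 7 were lower, including MASTL, the kinase that restrains the phosphatase opposing CDK1 (-0.89 and -0.57). Of 22 other spindle and centrosome genes, 7 and 6 were lower.

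Several lists hold complexes that also work outside mitosis. Of 16 APC/C subunits and partners, 2 were lower at 16 h and 4 at 48 h, among them FBXO5, an inhibitor of the APC/C (-0.80 and -0.44), and at 48 h UBE2S, its chain-extending enzyme (-0.59). Of 13 cohesin genes, 4 and 2 were lower. Among 20 kinesins of interphase transport, 1 was lower and 1 higher at 16 h (KIF5C at -0.82 and KIF16B at 0.54), and 4 were lower at 48 h. Another probe set of KIF5C read 0.08 at 16 h and was not called. Of 9 other checkpoint and passenger genes, CDCA8, the passenger subunit borealin, fell by 0.71 and 0.78. Of 3 condensin II genes, NCAPG2 fell by 0.82 and 0.60.

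Among 21 genes of MuvB, DREAM, E2F and NF-Y, 6 were lower at each time. MYBL2 (B-MYB) fell by 0.64 and 0.52, and the repressor E2F8 by 1.29 and 1.18. Of 14 G1 cyclins, CDKs and CDK inhibitors, 3 and 4 were lower. These were CCNE2 (-0.84 and -0.76), the G1/S cyclin, with the CDK inhibitors CDKN1A (p21, -0.64 and -0.61) and CDKN1B (p27, -0.53 and -0.77) at both times, and CDKN2D at 48 h (-0.38, with another probe set at 0.01). The proliferation markers MKI67 (-0.67 and -0.66) and PCNA (-0.69 and -0.47) fell at both times. None of 10 housekeeping genes was called at 16 h, and 1, ACTB (-0.32), was lower at 48 h.

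**Figure D5:**
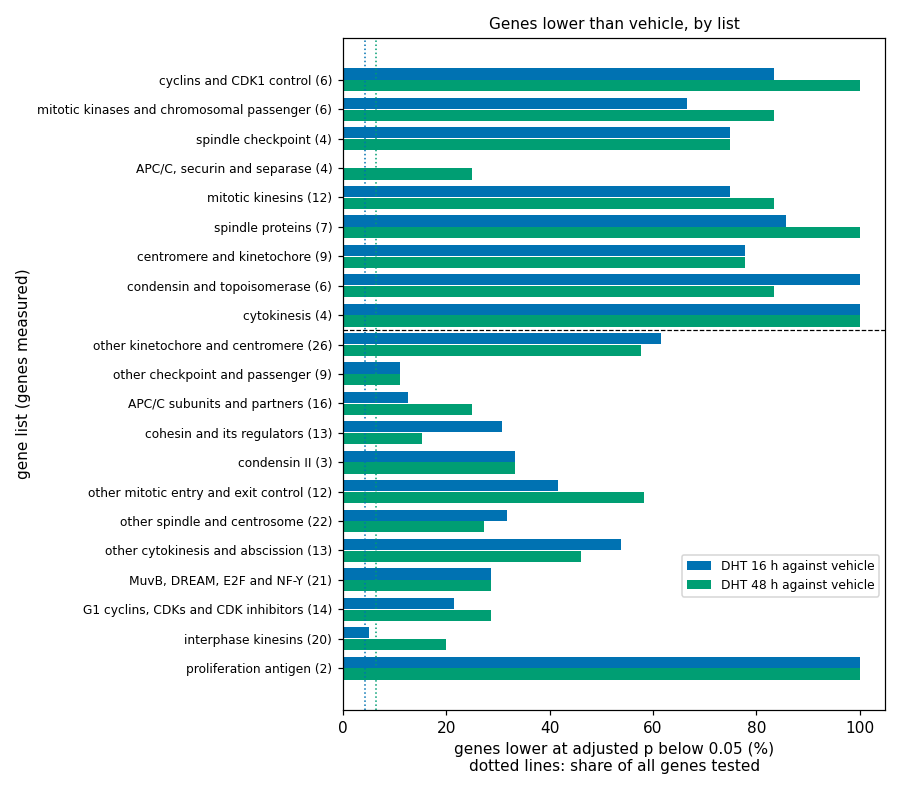
Share of measured genes lower than vehicle at adjusted p below 0.05 in limma, at 16 h (blue) and 48 h (green), for the roles of the 59 mitotic genes (above the dashed line) and the other lists (below it), with the number measured in brackets; FOXM1, a role of its own, is not drawn. Dotted lines mark the share of all genes, 4.3% and 6.38%. Among the roles of the 59, only the APC/C, securin and separase bars are short (0 of 4 and 1 of 4).

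Different probe sets of one gene did not always give the same reading. The 30 genes with more than 1 probe set had 51 others. In a fit over all 41091 probe sets with 1 symbol, 19 of the 51 were lower at 16 h and 16 at 48 h, and 0 were higher. Values below 0 were found for 47 and 49 of them. In the same fit 30 and 39 of the 59 first probe sets were lower. Of the 3 further probe sets of CENPN, 2 gave -1.06 and -0.94 at 16 h and were called, and the last gave 0.03 (adjusted p = 0.935). One of CDC25C (mean log2 signal 8.06) gave -0.03 and one of AURKA (mean log2 signal 7.85) gave -0.14, neither of them called.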

How the data were processed

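The submitters normalised the 8 HG-U133 Plus 2.0 arrays by RMA (robust multi-array average), per the submitters' processing notes. Its version: not given in the sources used here. The deposited values are log2 signals, 3.68 to 15.57 over 54675 probe sets, with array medians of 7.59 to 7.63, and nothing further was normalised. RMA puts all arrays on one distribution, so a change is relative to the other genes. Precision is limited by how few arrays there are. Of the probe sets, 41091 had 1 gene symbol, 1801 had several, 11721 had none and 62 were controls, which were left out. Probe sets that name CENPA (1) or CKAP2 (6) together with other genes were not used, and some listed genes are not analysed here.

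A model with 4 group means was fitted with limma 3.58.1 in R 4.3.3 (4 residual and 7.21 prior degrees of freedom), with two-sided tests. With 2 arrays a group the smallest p of an exact permutation test is 0.333, and none was run. P-values measure the spread between the replicates as labelled. The fit was tested on simulated data with 200 changed genes. Promoters were searched in Python 3.11.15. All 59 genes were named, with up to 4 called genes of each other list and MYBL2, MKI67 and CDKN1A. The genes and lists were chosen with earlier results of these data known. Alternatives were other probe set choices, scalings, fits and leaving out each array.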

Additional observations from a re-analysis of the deposited data

Results flagged for a closer look

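Some mitotic genes differed between times of DHT treatment, by the test of that difference (limma, Benjamini-Hochberg adjustment over all genes). There was no vehicle array at each time, so DHT and time in culture cannot be told apart. All values are log2 signals at the later time minus those at 4 h. The 2 comparisons have their 4 h arrays in common.

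At 16 h, 25 genes lay below their 4 h level, with adjusted p from 0.000447 (SPC25) to 0.0456 (PLK4). Of these 25 calls, 7 were kept in every alternative that could be run, and that of PLK4 was lost in 13 of 18. For the cyclins, CDK1 control genes and kinases the change was -0.98 for CCNA2, -0.51 for CCNB1, -0.83 for CDK1, -0.67 for PLK1, -0.40 for PLK4 and -0.78 for AURKB. It was -0.55 for BUB1B and -0.61 for TTK among the checkpoint and APC/C genes. The kinesins gave -0.56 for KIF15, -0.89 for KIF18A, -0.84 for KIF20A and -0.65 for KIF23. For the spindle proteins the change was -0.70 for DLGAP5, -0.71 for TPX2 and -0.72 for CKAP2L. It was -0.69 for CENPA, -0.69 for CENPN and -1.03 for SPC25 among the centromere and kinetochore genes. The condensin and topoisomerase genes gave -0.67 for NCAPG, -0.46 for NCAPH, -0.46 for NCAPD2, -0.63 for SMC2 and -0.71 for TOP2A. For the cytokinesis genes the change was -0.50 for PRC1 and -1.23 for ANLN.

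At 48 h, 34 genes lay below their 4 h level, with adjusted p from 0.000234 (KIF20A) to 0.0488 (NCAPD2). Of these 34 calls, 9 were kept in every alternative that could be run, and that of NCAPD2 was lost in 10 of 17. For the cyclins, CDK1 control genes and kinases the change was -0.79 for CCNA2, -0.64 for CCNB1, -0.52 for CCNB2, -0.59 for CDC25B, -0.90 for PLK1, -0.37 for PLK4, -0.79 for AURKB, -0.80 for BIRC5 and -0.59 for NEK2. It was -0.58 for BUB1, -0.53 for BUB1B, -0.68 for TTK and -0.64 for UBE2C among the checkpoint and APC/C genes. The kinesins gave -0.64 for KIF2C, -0.71 for KIF4A, -0.55 for KIF11, -0.88 for KIF18A, -0.92 for KIF20A, -0.44 for KIF20B and -0.85 for KIF23. For the spindle proteins the change was -0.78 for DLGAP5, -0.63 for TPX2 and -0.68 for CKAP2L. It was -0.64 for CENPA, -0.62 for CENPE, -0.78 for CENPN, -0.76 for NUF2 and -0.73 for SPC25 among the centromere and kinetochore genes. The condensin and topoisomerase genes gave -0.58 for NCAPH, -0.35 for NCAPD2 and -0.77 for TOP2A. For the cytokinesis genes and FOXM1 the change was -0.51 for PRC1, -0.74 for ANLN and -0.86 for FOXM1. BIRC5 was in this set although it was not called against vehicle at any time. Groups of 2 arrays were too small to single out an array by its distance from the others.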

How the results depend on the processing

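Against vehicle, the number of mitotic genes called stayed within 1.5 times its value in 15 of 18 settings at 16 h and in 16 of 18 at 48 h. At 4 h it did so in 18 of 18, where it was 0. Between times it did so less often against 4 h, in 11 of 18 settings at 16 h and in 14 of 18 at 48 h. For 48 h against 16 h it did so in 17 of 18. Over fits that left out 1 array it ranged from 21 to 54 at 16 h against vehicle, from 23 to 56 at 48 h, from 7 to 48 for 16 h against 4 h, from 11 to 49 for 48 h against 4 h and from 0 to 12 for 48 h against 16 h. A group then had 1 array, which was assumed to vary like the others, and the number of all genes called moved as well. The median change at 16 h ranged from -0.78 to -0.45. With only the 4 arrays compared, 29 genes were called at 16 h against vehicle and 13 against 4 h. At 48 h the same setting added calls, for 4 genes against vehicle and for 16 against 4 h. These fits have fewer residual degrees of freedom. For 16 h against 4 h, 12 genes were called when adjusted over all probe sets. Without probe sets of the _s_at and _x_at kinds it was 16 of the 45 genes left. The causes of these differences were not tested. A shift to equal housekeeping signal gave 44 and 47 mitotic genes lower than vehicle. Over all genes it turned 850 lower and 504 higher at 16 h into 718 and 829, and 1262 and 619 at 48 h into 1098 and 799. With the replicate number as a block 45 and 48 were lower than vehicle, 25 and 33 lower than at 4 h, and 0 in the other comparisons. Deviations of same-numbered arrays correlated at -0.244 to 0.196, so the numbers were not taken as pairs, and the block moved no count by over 1.5 times. Without probe sets of those 2 kinds some called values changed sign on another probe set. KIF5C read 0.0797 at 16 h and 0.0483 at 48 h against vehicle and 0.0108 at 16 h against 4 h. At 48 h LIN9 read 0.0385, NIPBL 0.0759 and CDKN2D 0.0138 against vehicle, and SPDL1 0.0096 against 4 h. KIF23 read 0.0456 at 16 h against 4 h. In each of these the gene was read by a different probe set, and the cause was not tested further. Array weights could not separate the 2 arrays of a group. Signal over background limits dim probe sets.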
